A study of Mus musculus with 8 samples.

Results

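Glucose enters the cell, is broken down to pyruvate and lactate by glycolysis, can be rebuilt through gluconeogenesis, or is diverted into the pentose phosphate pathway. A list of 34 gene symbols for these routes was followed across bulk RNA sequencing of mouse progenitor cells. Membership rests on gene function, and the list was chosen with earlier results of these data known. Of the 34 symbols, 33 were in the count tables, since Pkm is counted there under its older symbol Pkm2, and 32 passed a filter on low counts, out of 34199 genes listed and 13080 genes tested in all. Eno2, another enolase gene, did not pass, with 9 counts in HOXA9 OFF replicate 2 and 0 in the other 7 libraries. The cells were immortalised granulocyte-macrophage progenitors (iGMPs) from C57Bl/6 bone marrow, held in self-renewal by a HOXA9 transgene fused to the hormone-binding part of the estrogen receptor and carrying a lysozyme-GFP reporter of differentiation. There were 4 groups of 2 libraries. Uninduced cells were collected at 0 h in medium with 150 ng/ml estradiol, which keeps HOXA9 active. IPTG control cells were in IPTG for 48 h with 150 ng/ml estradiol, as a control for the inducer, at an IPTG dose the labels do not give. For this purpose the study's methods describe a line with a spacer in place of the shRNA. CAF-1 OFF cells received 500 µM IPTG for 48 h to switch on an shRNA against Chaf1b, a subunit of the CAF-1 histone chaperone, with estradiol still present. HOXA9 OFF cells were washed and kept without estradiol for 48 h, which lets the progenitors differentiate into neutrophils. All groups carried the HOXA9 fusion and the reporter, and the inducible lines were grown from single clones. The labels do not say which clone each library came from, or whether replicates are separate cultures, so the tests measure only the spread between these libraries.

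Glycolysis splits 1 glucose through a shared set of enzymes into pyruvate, and lactate dehydrogenase then regenerates the NAD+ that the pathway needs. The oxidative arm of the pentose phosphate pathway, led by glucose-6-phosphate dehydrogenase, makes NADPH, and the other arm interconverts sugars and makes ribose for nucleotides. Neutrophils are known to rely on glycolysis, to store glycogen, and to use NADPH for their oxidative burst, while dividing progenitors need ribose, and MYC and the hypoxia-inducible factor HIF1 are textbook activators of glycolytic genes.

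The 8 libraries held between 14044284 and 22423837 counts in genes, and a level of 3 counts, used as the detection floor, was 0.128 to 0.212 CPM (counts scaled to a common library size by TMM). Floors cover counting error only. Chaf1b, which checks the knockdown, was at 96.8 and 100.3 CPM in uninduced, 95.1 and 102 in IPTG control, 18.7 and 9.72 in CAF-1 OFF and 48.3 and 41.0 in HOXA9 OFF cells. In uninduced cells 6 progenitor markers summed to 7691 to 10359 CPM and 8 neutrophil markers to 94.2 to 95.2 CPM. The 8 neutrophil markers summed to 1273 and 2211 CPM in CAF-1 OFF cells, where 6 of 8 rose, and to 9111 and 6192 CPM in HOXA9 OFF cells, where 8 of 8 rose. A list of 9 proliferation genes summed to 2672 and 2044 CPM in HOXA9 OFF cells, where 7 of 9 fell, and to 3341 to 3767 CPM in the other 6 libraries. The progenitor markers summed to 7663 to 9904 CPM in IPTG control, 12419 and 11562 in CAF-1 OFF and 5150 and 3626 CPM in HOXA9 OFF cells, where 4 of 6 fell and 1 rose. The sum of 6 megakaryocyte markers was 25.5 to 31.2 CPM in the controls, 195 and 223 CPM in CAF-1 OFF cells, where 4 of 6 rose, and 132 and 142 CPM in HOXA9 OFF cells, where 4 rose and 1 fell. Monocyte and macrophage markers, of which 3 of 5 were tested, summed to 21.2 to 47.6 CPM in the controls, 39.8 and 64.1 in CAF-1 OFF cells, where 1 rose, and 961 and 1297 CPM in HOXA9 OFF cells, where 3 rose, with Marco at 0 in every library. Of 4 lymphoid markers, 2 were tested and 1 rose in CAF-1 OFF cells against uninduced and both against IPTG control cells, with sums of 17.2 and 16.6 CPM there and 2.12 to 3.31 CPM in the controls. In HOXA9 OFF cells 1 rose and 1 fell (3.74 and 8.83 CPM), and Cd3e was at 0 in every library. Of 6 erythroid markers, 3 were tested and 2 rose in CAF-1 OFF cells against uninduced and 1 against IPTG control cells, with sums of at most 6.53 CPM in any library and Slc4a1 at 0 in all. These marker changes ran along with the gene changes below, and their part in them was not tested. In bulk RNA, fewer cells of a type and less RNA per cell cannot be told apart.

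A member was called when edgeR's quasi-likelihood test, fitted to all 8 libraries with TMM scaling, a low-count filter and no replicate block (the standard fit), gave a false discovery rate (FDR, adjusted over all tested genes) under 0.05 and the change was at least 1.5-fold. In CAF-1 OFF cells 5 of 32 members were called against uninduced cells, 3 higher and 2 lower, beside 14.0% of all tested genes (10.5% higher and 3.50% lower). The members that rose were both fructose bisphosphatase genes, Fbp1 and Fbp2, and the glucose transporter gene Slc2a3, and those that fell were Pgls and Rpia of the pentose phosphate pathway. Against IPTG control cells these 5 genes were called again in the same directions, beside 12.8% of all genes (9.56% higher and 3.20% lower). With single libraries left out, each of these counts of 5 lay between 2 (without CAF-1 OFF replicate 2, among others) and 9 (without HOXA9 OFF replicate 2), and DESeq2 called 8 and 10. The median log2 fold change of the members was -0.26 against uninduced and -0.29 against IPTG control cells, where the medians of all tested genes were 0.01 in both. In HOXA9 OFF cells 21 of 32 members were called, 11 higher and 10 lower, beside 47.2% of all genes (25.2% higher and 22.1% lower). The median of the members was -0.02 (0.02 with genes at the floor set to their bound) and that of all genes 0.01. With library size alone as the scaling, the median of all genes in this comparison moved to -0.18 and the members split into 7 higher and 13 lower. The direct contrast of CAF-1 OFF with HOXA9 OFF cells called 18 members, with CAF-1 OFF above in 7 and below in 11, beside 43.5% of all genes (22.2% higher and 21.4% lower), and with library size alone 9 higher and 5 lower. Between IPTG control and uninduced cells edgeR called 0 of 32 members and 0 of all tested genes, of which 0.765% had an unadjusted p under 0.05, and DESeq2 also called 0 members. A total of 28 members were called in at least 1 of the first 4 comparisons and 4 tested members had no call there in the standard fit, namely Pfkl, Aldoa, Pgk1 and Pfkfb3. The counts by role that follow are descriptions to be read beside these shares of all genes. The comparisons with uninduced cells share those 2 control libraries. Those of CAF-1 OFF cells share the same 2 CAF-1 OFF libraries, so calls repeated between them are not independent.

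**Figure D1:**
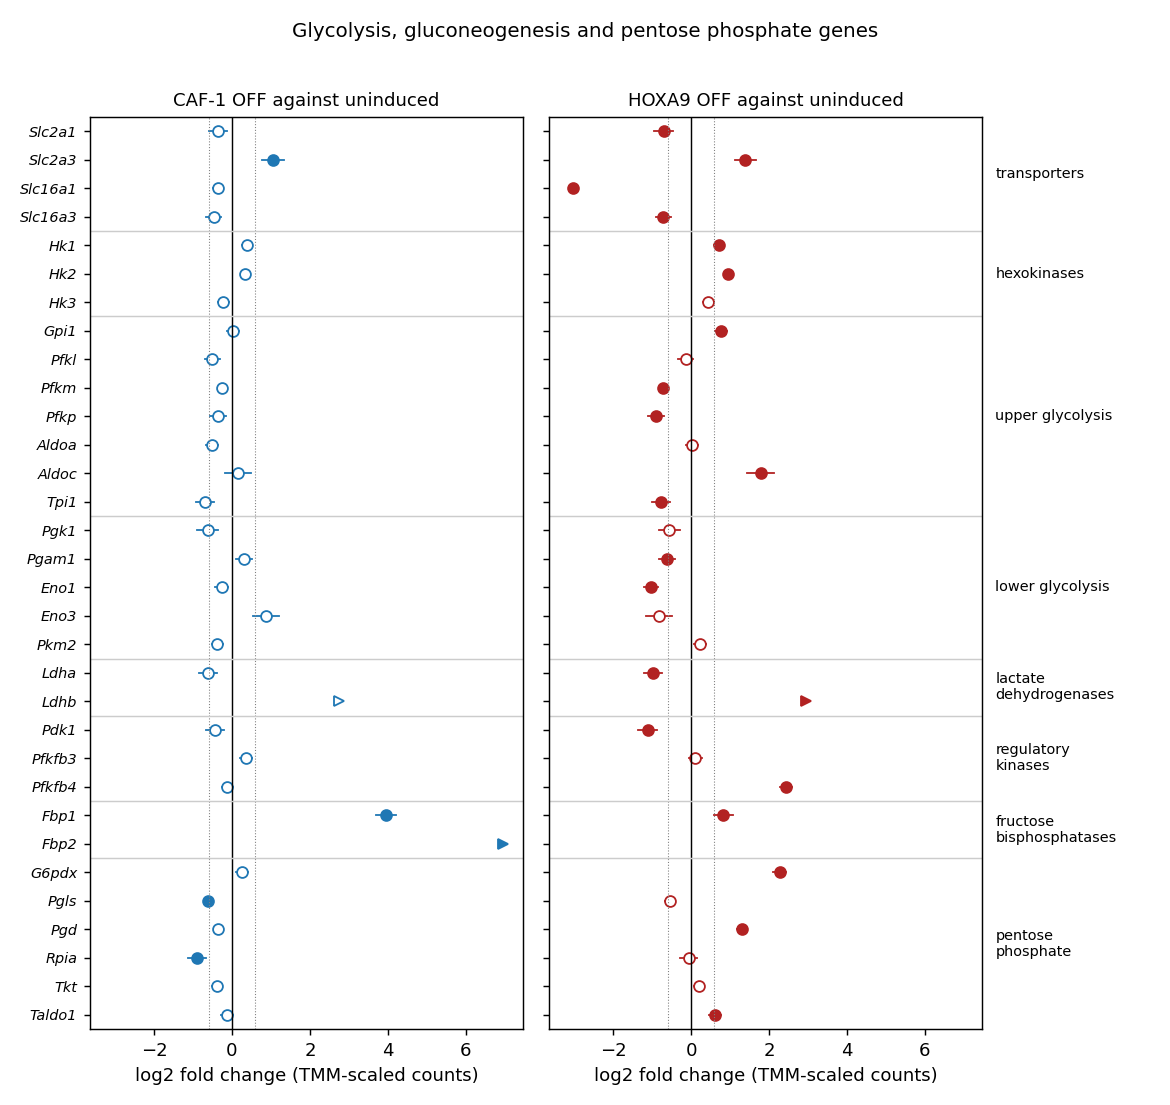
Log2 fold change of the 32 tested members, grouped by role, in CAF-1 OFF (left) and HOXA9 OFF cells (right) against uninduced cells. Points are estimates from 2 libraries a group and bars are ± 1 SE, with SE and calls from the fit over all 8 libraries. Filled symbols are called, triangles are lower bounds against a group at the floor, and dotted lines mark 1.5-fold. The called points on the left are 5 and on the right 21, and Fbp2, whose uninduced and HOXA9 OFF levels were both at the floor, has no point on the right.

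All 4 glucose and lactate transporter genes were called in HOXA9 OFF cells, 1 higher and 3 lower, beside 47.2% of all tested genes. Slc16a1, which encodes the monocarboxylate transporter MCT1 that carries lactate and pyruvate across the membrane, was at 278 and 287 CPM (uninduced), 277 and 264 CPM (IPTG control), 215 and 223 CPM (CAF-1 OFF) and 38.5 and 31.3 CPM (HOXA9 OFF). Its HOXA9 OFF libraries lay far below the other 6, and the log2 fold change was -3.02 ± 0.12 (SE, FDR = 1.1e-05) against uninduced cells. The CAF-1 OFF libraries were also below all 4 control libraries, but at -0.37 ± 0.11 (SE, FDR = 0.053) the gene was not called there. Slc16a3, for the lactate exporter MCT4, was at 294 and 263 CPM (uninduced), 288 and 297 CPM (IPTG control), 194 and 208 CPM (CAF-1 OFF) and 133 and 207 CPM (HOXA9 OFF). It fell by 0.71 on the log2 scale in HOXA9 OFF cells (SE 0.19, FDR = 0.013), and the call was lost without HOXA9 OFF replicate 1 (log2 fold change -0.43) or uninduced replicate 1 (-0.63).

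The glucose transporters GLUT1 and GLUT3 moved in opposite directions in HOXA9 OFF cells. Slc2a1, for GLUT1, was at 129 and 115 CPM (uninduced), 129.9 and 127 CPM (IPTG control), 100.0 and 90.5 CPM (CAF-1 OFF) and 52.9 and 96.2 CPM (HOXA9 OFF). All HOXA9 OFF values were below the controls, with a log2 fold change of -0.71 ± 0.24 (SE, FDR = 0.036), which became -0.34 and lost its call without HOXA9 OFF replicate 1. It was also not called without either uninduced library, IPTG control replicate 2 or CAF-1 OFF replicate 2, with values of -0.63 to -0.79. Slc2a3, for the high-affinity transporter GLUT3, was at 26.1 and 22.8 CPM (uninduced), 28.3 and 19.8 CPM (IPTG control), 63.1 and 38.5 CPM (CAF-1 OFF) and 74.0 and 54.5 CPM (HOXA9 OFF). Every CAF-1 OFF and HOXA9 OFF library was above every control library. The log2 fold change of Slc2a3 was 1.39 ± 0.28 (SE, FDR = 0.0035) in HOXA9 OFF cells, 1.05 ± 0.28 (SE, FDR = 0.035) in CAF-1 OFF cells against uninduced and 1.08 ± 0.28 (SE, FDR = 0.036) against IPTG control cells. The CAF-1 OFF call against uninduced cells was lost on leaving out any 1 of the 4 libraries compared, with values from 0.63 without CAF-1 OFF replicate 1 to 1.37 without CAF-1 OFF replicate 2. The call against IPTG control cells was lost without any 1 of the uninduced, IPTG control or CAF-1 OFF libraries, at 0.66 to 1.39.

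Lactate dehydrogenase A and the kinase that closes the route from pyruvate into the mitochondrion fell in HOXA9 OFF cells. Ldha, which encodes the subunit that favours lactate formation, was at 1436 and 1314 CPM (uninduced), 1477 and 1401 CPM (IPTG control), 904 and 893 CPM (CAF-1 OFF) and 515 and 886 CPM (HOXA9 OFF). Its log2 fold change was -0.97 ± 0.23 (SE, FDR = 0.0072) in HOXA9 OFF cells, and all 4 treated libraries were below the 4 controls. In CAF-1 OFF cells Ldha was at -0.61 ± 0.22 (SE, FDR = 0.091) against uninduced cells, not called, while DESeq2, the fit without the low-count filter and the fit of only these 2 groups called it lower (-0.62 to -0.64). Ldhb, for the other subunit, had 0 counts in all 4 control libraries, 4 and 30 counts in CAF-1 OFF and 27 and 12 counts in HOXA9 OFF libraries. Its HOXA9 OFF level was called higher in the standard fit (FDR = 0.02), and by at least 7.71-fold with uninduced libraries set to 3 counts each. That call was lost without either uninduced library or HOXA9 OFF replicate 1, and the limit was 4.46 from HOXA9 OFF replicate 2 alone. Pdk1, a kinase that inhibits pyruvate dehydrogenase, was at 239 and 217 CPM (uninduced), 249 and 216 CPM (IPTG control), 181 and 157 CPM (CAF-1 OFF) and 76.5 and 134 CPM (HOXA9 OFF), and its log2 fold change in HOXA9 OFF cells was -1.11 ± 0.24 (SE, FDR = 0.0049).

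The windows of 250 bases before the RefSeq transcript starts (build GRCm38.p6) of the most strongly lowered member and of Ldha are shown because both hold the CACGTG letters that MYC and its relatives bind. They lie at chr3:104638414-104638663 on the plus strand for Slc16a1 and at chr7:46845554-46845803 on the plus strand for Ldha, where the first listed of 2 windows is given. Capitals mark every match, on either strand, to ACGTG (core of the HIF element), CACGTG (E-box, which holds ACGTG on both strands), CCGGAAG (ETS), TGACNNNGC (antioxidant response element) or AGATAA (bound by GATA factors). The capitals in Slc16a1 are a reverse-strand TGACNNNGC match that overlaps CACGTG, and Ldha has CACGTG at 2 places and another ACGTG on the reverse strand. Ldha was picked for holding these letters. Pdk1 and Eno1, with lower log2 fold changes than Ldha in HOXA9 OFF cells, hold none of these motifs in their windows. Fbp2, which rose in CAF-1 OFF cells, also holds CACGTG.
Slc16a1: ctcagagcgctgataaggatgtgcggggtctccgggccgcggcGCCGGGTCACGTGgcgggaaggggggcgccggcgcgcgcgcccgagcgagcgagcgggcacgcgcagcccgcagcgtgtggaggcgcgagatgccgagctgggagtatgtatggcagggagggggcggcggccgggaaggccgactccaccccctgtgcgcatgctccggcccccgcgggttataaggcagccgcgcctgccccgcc
Ldha: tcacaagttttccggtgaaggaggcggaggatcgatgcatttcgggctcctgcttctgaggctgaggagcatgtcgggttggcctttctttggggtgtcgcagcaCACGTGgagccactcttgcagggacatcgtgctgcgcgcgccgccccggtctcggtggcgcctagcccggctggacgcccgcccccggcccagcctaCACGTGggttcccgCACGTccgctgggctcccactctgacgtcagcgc

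The hexokinases, which trap glucose as glucose 6-phosphate, were higher in HOXA9 OFF cells, with 2 of 3 called beside 25.2% of all genes higher. Hk1, the housekeeping form, was at 241 and 282 CPM (uninduced), 244 and 283 CPM (IPTG control), 348 and 332 CPM (CAF-1 OFF) and 445 and 417 CPM (HOXA9 OFF), a log2 fold change of 0.72 ± 0.12 (SE, FDR = 0.0015) in HOXA9 OFF cells. Hk2, the inducible form that also binds mitochondria, was at 118 and 110.1 CPM (uninduced), 121 and 107 CPM (IPTG control), 140.2 and 146 CPM (CAF-1 OFF) and 235 and 205 CPM (HOXA9 OFF), or 0.95 ± 0.11 (SE, FDR = 2.3e-04). In both genes the CAF-1 OFF libraries lay between the controls and the HOXA9 OFF libraries, without overlap and without a call against uninduced cells. Hk3, the myeloid form and the most abundant hexokinase here per kilobase of exon (221 ± 40.0 CPM per kb in uninduced cells, SD, n = 2), was at 917 and 709 CPM (uninduced), 828 and 746 CPM (IPTG control), 702 and 691 CPM (CAF-1 OFF) and 1174 and 1041 CPM (HOXA9 OFF). Its change in HOXA9 OFF cells, 0.45 ± 0.14 (SE, FDR = 0.031), passed the FDR but not the 1.5-fold threshold, and without uninduced replicate 1 it was called higher (0.64, FDR = 0.013). With library size alone the call for Hk1 was lost, at 0.53.

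The 7 genes of upper glycolysis, from glucose 6-phosphate to triose phosphates, split in HOXA9 OFF cells into 2 higher, 3 lower and 2 not called, beside 25.2% of all genes higher and 22.1% lower. The standard fit called none of the 7 under CAF-1 OFF, while DESeq2 called Tpi1 lower against both references and Pfkl lower against IPTG control cells. Gpi1, for glucose phosphate isomerase, which stands at the fork between glycolysis and the pentose phosphate pathway, was at 740.2 and 648 CPM (uninduced), 778 and 663 CPM (IPTG control), 719 and 700.3 CPM (CAF-1 OFF) and 1337 and 1032 CPM (HOXA9 OFF). It rose in HOXA9 OFF cells by a log2 fold change of 0.77 ± 0.15 (SE, FDR = 0.0036), and the call was lost without HOXA9 OFF replicate 1 (0.57) and with library size alone (0.58). Aldoc, the brain form of aldolase, rose from a low level, at 7.74 and 5.01 CPM (uninduced), 7.56 and 4.05 CPM (IPTG control), 8.05 and 6.17 CPM (CAF-1 OFF) and 21.2 and 22.6 CPM (HOXA9 OFF), with a log2 fold change of 1.78 ± 0.34 (SE, FDR = 0.0028). The 2 HOXA9 OFF libraries of Aldoc lay above the other 6, which overlapped among themselves. Aldoa, which makes nearly all aldolase message, was at 1754 and 1482 CPM (uninduced), 1717 and 1639.9 CPM (IPTG control), 1166 and 1113 CPM (CAF-1 OFF) and 1440.2 and 1850.1 CPM (HOXA9 OFF). The HOXA9 OFF values of Aldoa lay on either side of all 4 controls (log2 fold change 0.02), and in CAF-1 OFF cells it was lower at -0.51 ± 0.15 (SE, FDR = 0.049), which is under the 1.5-fold threshold.

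Phosphofructokinase, the main control point of glycolysis, is encoded by 3 genes, and 2 of them fell in HOXA9 OFF cells. Pfkm, the muscle form, was at 72.6 and 69.6 CPM (uninduced), 76.7 and 68.5 CPM (IPTG control), 62.5 and 57.1 CPM (CAF-1 OFF) and 42.1 and 43.9 CPM (HOXA9 OFF), with a log2 fold change of -0.72 ± 0.11 (SE, FDR = 8.4e-04). Pfkp, the platelet form, was at 225 and 258 CPM (uninduced), 234 and 258 CPM (IPTG control), 184 and 193 CPM (CAF-1 OFF) and 97.3 and 160.4 CPM (HOXA9 OFF), with -0.90 ± 0.21 (SE, FDR = 0.0076). Both HOXA9 OFF libraries were below every other library in either gene. Pfkl, the liver form and the most abundant of the 3 per kilobase, was at 376 and 363 CPM (uninduced), 411 and 405 CPM (IPTG control), 284 and 237 CPM (CAF-1 OFF) and 264 and 407 CPM (HOXA9 OFF) and was not called in the standard fit in any comparison. DESeq2 called Pfkl lower in CAF-1 OFF against IPTG control cells (log2 fold change -0.65, FDR = 0.0078), as did edgeR without the low-count filter (-0.67), with only the groups compared (-0.64) or without either HOXA9 OFF library (-0.66 and -0.66), and without HOXA9 OFF replicate 1 it was called lower than in HOXA9 OFF cells (-0.65). Tpi1, which interconverts the triose phosphates, was at 857 and 749 CPM (uninduced), 834 and 828 CPM (IPTG control), 539 and 462 CPM (CAF-1 OFF) and 350.0 and 597 CPM (HOXA9 OFF). Its log2 fold change in HOXA9 OFF cells was -0.76 ± 0.23 (SE, FDR = 0.023), and without HOXA9 OFF replicate 1 its value was -0.43 and not called, as it was without either uninduced library (-0.67 and -0.86). In CAF-1 OFF cells Tpi1 was at -0.68 ± 0.23 (SE, FDR = 0.072), not called in the standard fit but called lower by DESeq2 (-0.69), and by edgeR without the low-count filter, with only the groups compared or without either HOXA9 OFF library (-0.69 to -0.71).

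In lower glycolysis, from triose phosphate to pyruvate, 2 of 5 tested members fell in HOXA9 OFF cells, and none rose, beside 22.1% of all genes lower and 25.2% higher. None of the 5 was called under CAF-1 OFF in the standard fit, while DESeq2 called Eno3 higher against IPTG control cells (1.05, FDR = 0.041). A fit of only the groups compared, or one without either HOXA9 OFF library, called Pgk1 lower in CAF-1 OFF cells against both references (-0.61 to -0.64). Eno1, the ubiquitous enolase, was at 822 and 735 CPM (uninduced), 811 and 834 CPM (IPTG control), 639.7 and 656 CPM (CAF-1 OFF) and 308 and 454 CPM (HOXA9 OFF), and its log2 fold change in HOXA9 OFF cells was -1.03 ± 0.18 (SE, FDR = 0.0016). Pgam1, for phosphoglycerate mutase, was at 21.1 and 25.6 CPM (uninduced), 23.6 and 19.4 CPM (IPTG control), 34.0 and 24.0 CPM (CAF-1 OFF) and 15.2 and 15.1 CPM (HOXA9 OFF). Its HOXA9 OFF libraries were below all others, at -0.62 ± 0.20 (SE, FDR = 0.032), but the call was lost without either HOXA9 OFF library, without uninduced replicate 2 (-0.48), and against IPTG control cells (-0.50). Eno3, the muscle enolase, was at 8.06 and 6.89 CPM (uninduced), 5.16 and 8.04 CPM (IPTG control), 10.2 and 17.1 CPM (CAF-1 OFF) and 3.58 and 4.86 CPM (HOXA9 OFF). It was higher than uninduced cells in CAF-1 OFF and lower in HOXA9 OFF libraries and the standard fit called neither, at 0.87 ± 0.33 (SE, FDR = 0.1) and -0.82 ± 0.34 (SE, FDR = 0.07). With library size alone it was called lower in HOXA9 OFF cells (-1.01, FDR = 0.035). Pkm2, for the muscle-type pyruvate kinase, whose splice forms these counts per gene do not tell apart, and the most abundant gene of the group per kilobase (631 ± 92.1 CPM per kb in uninduced cells), was at 1665 and 1354 CPM (uninduced), 1595 and 1500.1 CPM (IPTG control), 1132 and 1201 CPM (CAF-1 OFF) and 1569.8 and 1961 CPM (HOXA9 OFF), which overlapped between HOXA9 OFF and uninduced cells.

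Several of these enzymes share sequence with other places in the genome, and the count tables hold reads with several alignments in a summary row apart from the genes. Of all windows of 50 bases in the longest coding transcript, the share found nowhere else in the mm9 genome was 7.10% for Pgk1, 8.14% for Pgam1, 27.8% for Eno1, 58.6% for Pkm2, 66.4% for Ldhb, 68.6% for Gpi1, 70.9% for Ldha and 76.4% for Tpi1. It was 85.2% for Aldoa, 86.9% for Taldo1 and 92.4% for G6pdx, and at least 98.8% for every other member. Gapdh, outside the list, had 14.4% and 6.10 and 4.96 CPM in uninduced cells. Levels of Pgk1, Pgam1 and Eno1 are uncertain, since they rest on a small part of each transcript.

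Among the regulators of glycolytic flow, Pfkfb4 had the highest log2 fold change of all members in HOXA9 OFF cells, Ldhb and Fbp2 aside, whose uninduced level was at the floor. Pfkfb4, a kinase-phosphatase that sets the fructose bisphosphate signal acting on phosphofructokinase, was at 13.2 and 14.8 CPM (uninduced), 13.0 and 14.7 CPM (IPTG control), 12.7 and 13.0 CPM (CAF-1 OFF) and 82.3 and 69.5 CPM (HOXA9 OFF). The HOXA9 OFF libraries stood apart from the other 6, which ranged from 12.7 to 14.8 CPM, and the log2 fold change was 2.44 ± 0.15 (SE, FDR = 1.8e-05). Pfkfb3, the related enzyme with the strongest kinase activity, was at 89.2 and 104 CPM (uninduced), 99.3 and 100.3 CPM (IPTG control), 132 and 117 CPM (CAF-1 OFF) and 121 and 87.8 CPM (HOXA9 OFF) and was called in no comparison.

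**Figure D2:**
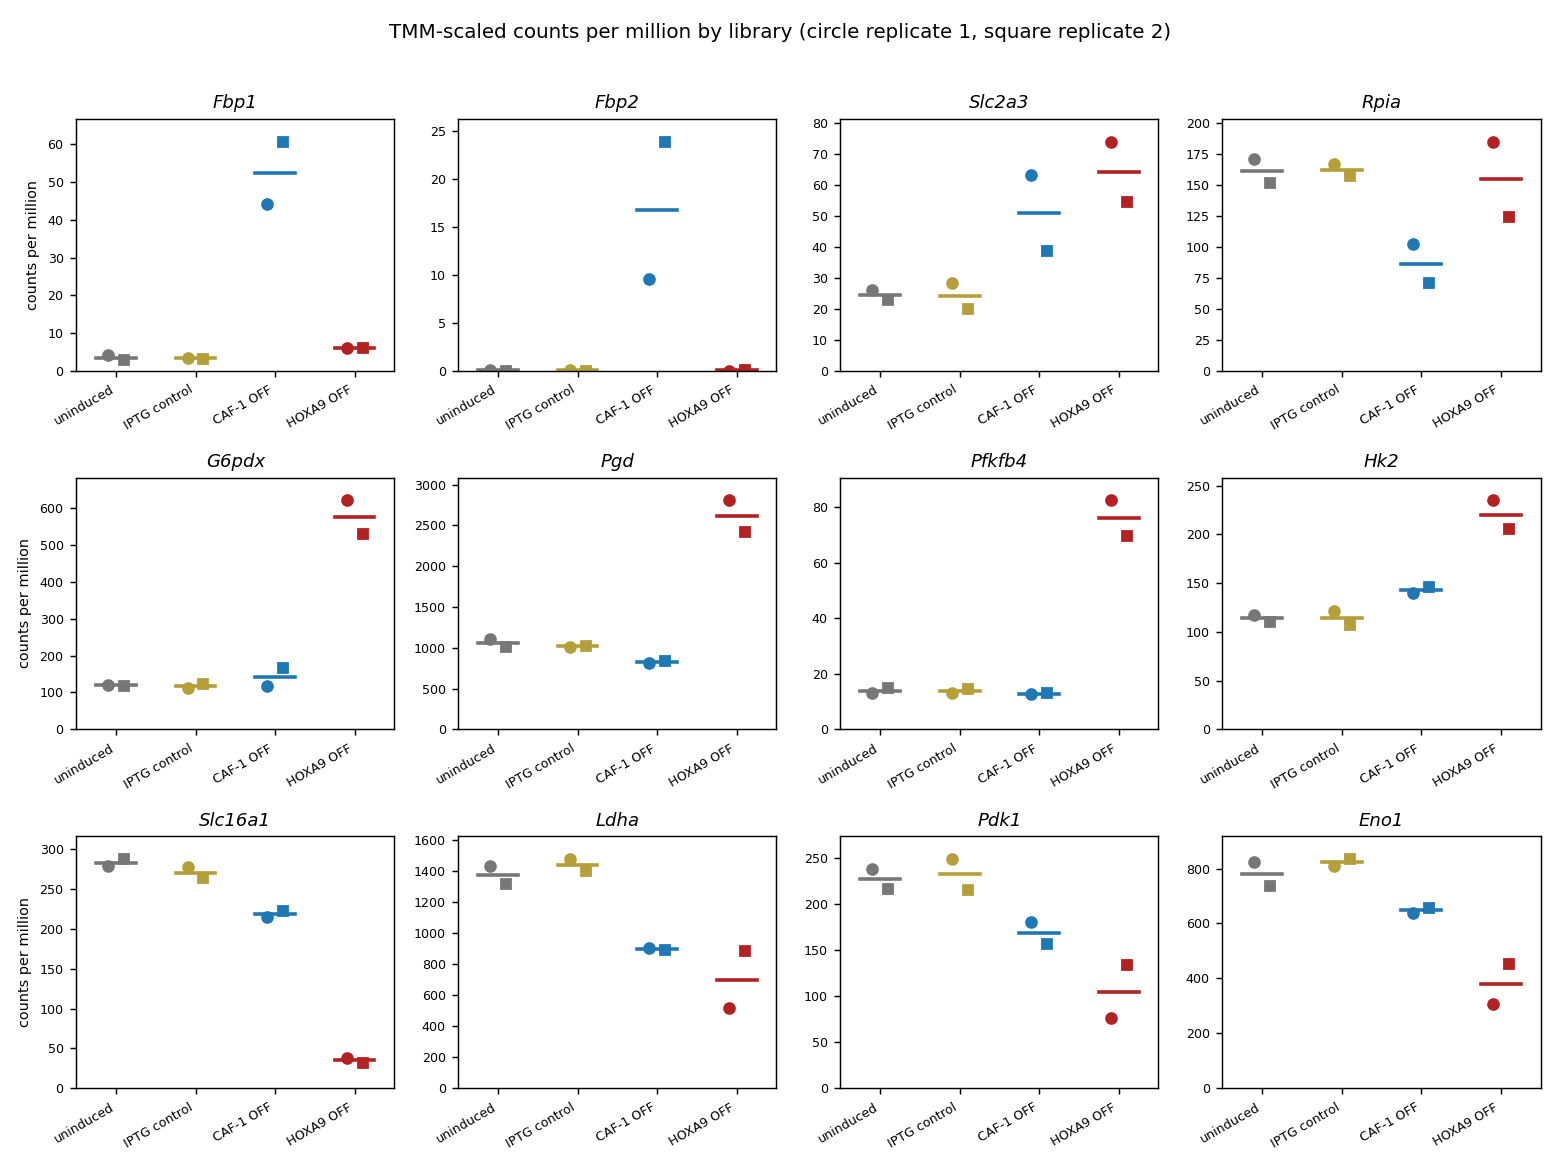
TMM-scaled CPM of 12 members in each library. Circles are replicate 1, squares replicate 2 and bars the mean of the 2 libraries of a group, and every axis starts at 0. Fbp1 and Fbp2 stand out in CAF-1 OFF cells, G6pdx, Pgd and Pfkfb4 in HOXA9 OFF cells, and Slc16a1 is at 38.5 and 31.3 CPM in HOXA9 OFF cells against 215 to 287 elsewhere.

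Both fructose bisphosphatase genes rose in CAF-1 OFF cells, and these were the largest changes among the members called there. Ldhb, with 0 counts in the controls, was not called there in the standard fit (FDR = 0.053). DESeq2 and edgeR without the low-count filter (FDR = 0.016) called it higher, and so did fits without CAF-1 OFF replicate 1 or HOXA9 OFF replicate 2. With uninduced libraries at the floor, Ldhb was at least 6.66-fold higher. That limit rests on replicate 2, since it was 1.58 from CAF-1 OFF replicate 1 alone and 11.7 from replicate 2 alone. Fructose bisphosphatase removes a phosphate from fructose bisphosphate, the step of gluconeogenesis that runs against phosphofructokinase. Fbp1, the form known from liver, kidney and monocytes, was at 4.09 and 2.70 CPM (uninduced), 3.32 and 3.19 CPM (IPTG control), 44.3 and 60.7 CPM (CAF-1 OFF) and 5.91 and 6.10 CPM (HOXA9 OFF). Its log2 fold change in CAF-1 OFF cells was 3.95 ± 0.26 (SE, FDR = 9.1e-04) against uninduced and 4.01 ± 0.27 (SE, FDR = 9.1e-04) against IPTG control cells. In HOXA9 OFF cells Fbp1 was at 0.82 ± 0.25 (SE, FDR = 0.023), called but lost without uninduced replicate 2 (0.55), without HOXA9 OFF replicate 2 (0.80), in a fit of only these 2 groups (0.80) and with library size alone (0.64). The direct contrast placed CAF-1 OFF cells above HOXA9 OFF cells by 3.13 ± 0.25 (SE, FDR = 7.5e-05).

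Fbp2, the muscle form, was close to silent outside CAF-1 OFF cells. It had 2 and 0 counts in uninduced, 1 and 0 in IPTG control, 181 and 457 in CAF-1 OFF and 0 and 1 in HOXA9 OFF libraries, or 9.53 and 23.9 CPM in CAF-1 OFF cells. In the standard fit its FDR in CAF-1 OFF cells was 0.0032 against uninduced, 0.0042 against IPTG control and 2.7e-04 against HOXA9 OFF cells. With these groups set to 3 counts per library, the CAF-1 OFF level was at least 125-fold, 78.8-fold and 103-fold higher in that order. CAF-1 OFF replicate 2 was above replicate 1 in both genes, and from replicate 1 alone these Fbp2 limits were 71.4, 44.9 and 58.5. The calls of Fbp1 and Fbp2 in CAF-1 OFF cells held under every alternative, each left-out library included.

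The pair lies side by side in mm9, Fbp2 at chr13:62938244-62959760, minus strand and Fbp1 at chr13:62966113-62989642, minus strand, with 6352 bases between them. Other protein-coding genes in the count tables within 300 kb of the pair were few, and they were looked at after the values of the pair were known. Gm17367, which overlaps the Fbp1 span on the other strand, was at 0 in all libraries. The neighbour 2010111I01Rik was at 30.8 and 33.1 CPM in uninduced and 31.3 and 29.1 CPM in CAF-1 OFF libraries, with a log2 fold change of -0.08 (FDR = 0.90). The gene 6720489N17Rik had 24 and 35 counts in uninduced and 33 and 36 in CAF-1 OFF libraries, or a log2 fold change of 0.49 (FDR = 0.43). Neither was called in CAF-1 OFF cells against uninduced or IPTG control cells, and 6720489N17Rik was higher in CAF-1 OFF than in HOXA9 OFF cells (1.20, FDR = 0.048). The windows of 250 bases before the RefSeq starts (GRCm38.p6) are given for this pair as the called members with the largest rise in CAF-1 OFF cells, Fbp1 at chr13:62888283-62888532 on the minus strand and Fbp2 at chr13:62858401-62858650 on the minus strand. Capitals mark the same motifs as above, a forward AGATAA and a reverse-strand TGACNNNGC in Fbp1 and a single CACGTG in Fbp2.
Fbp1: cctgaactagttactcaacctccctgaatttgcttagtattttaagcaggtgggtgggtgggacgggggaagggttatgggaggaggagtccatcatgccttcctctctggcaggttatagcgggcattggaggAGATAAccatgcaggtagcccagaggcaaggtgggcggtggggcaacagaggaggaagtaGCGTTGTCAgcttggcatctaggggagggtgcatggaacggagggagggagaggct
Fbp2: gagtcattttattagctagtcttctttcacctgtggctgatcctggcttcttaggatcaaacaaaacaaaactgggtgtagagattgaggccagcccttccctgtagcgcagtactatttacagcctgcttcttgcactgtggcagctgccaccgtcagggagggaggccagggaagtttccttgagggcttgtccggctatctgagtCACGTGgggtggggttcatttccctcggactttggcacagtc

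Of the 6 pentose phosphate genes, 3 rose in HOXA9 OFF cells, among them both dehydrogenases that make NADPH, and 0 fell, beside 25.2% of all genes higher and 22.1% lower. Under CAF-1 OFF 0 rose and 2 fell, beside 10.5% and 3.50%. G6pdx, for glucose-6-phosphate dehydrogenase, which commits glucose to the pathway, was at 119.7 and 119 CPM (uninduced), 111 and 122 CPM (IPTG control), 118 and 166 CPM (CAF-1 OFF) and 619.7 and 529.5 CPM (HOXA9 OFF). HOXA9 OFF cells were above all others, with a log2 fold change of 2.27 ± 0.17 (SE, FDR = 3.6e-05). Pgd, for phosphogluconate dehydrogenase, the second NADPH-forming step, was at 1109.7 and 1014 CPM (uninduced), 1012 and 1023 CPM (IPTG control), 813 and 844 CPM (CAF-1 OFF) and 2805 and 2416 CPM (HOXA9 OFF), with 1.30 ± 0.12 (SE, FDR = 7.5e-05). Taldo1, for transaldolase in the non-oxidative arm, was at 699 and 524 CPM (uninduced), 661 and 558 CPM (IPTG control), 546 and 576 CPM (CAF-1 OFF) and 997 and 873 CPM (HOXA9 OFF). Its 0.61 ± 0.16 (SE, FDR = 0.013) in HOXA9 OFF cells was lost as a call without uninduced replicate 2 (0.42), without HOXA9 OFF replicate 1 (0.51), without the low-count filter (0.58) and with library size alone (0.42). Per kilobase of exon it was the most abundant of the 6 in uninduced cells (306 ± 62.1 CPM per kb, SD). Tkt was next at 262 ± 33.2, and this order depends on the gene length used. G6pdx and Pgd kept their HOXA9 OFF calls under every alternative.

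The step between G6pdx and Pgd did not follow them. Pgls, for the lactonase that joins both dehydrogenase steps, was at 182 and 159 CPM (uninduced), 168 and 168 CPM (IPTG control), 122 and 102 CPM (CAF-1 OFF) and 112 and 121 CPM (HOXA9 OFF). All 4 treated libraries were below all controls, at -0.61 ± 0.12 (SE, FDR = 0.015) in CAF-1 OFF cells, called, and -0.55 ± 0.12 (SE, FDR = 0.0052) in HOXA9 OFF cells, under the 1.5-fold threshold. With library size alone Pgls was called lower in HOXA9 OFF cells (-0.74, FDR = 0.0011) and lost its CAF-1 OFF calls (-0.57 and -0.54). It was also called lower in HOXA9 OFF cells without uninduced replicate 2 (-0.65) or HOXA9 OFF replicate 2 (-0.60). Rpia, for the isomerase that makes ribose 5-phosphate, was at 171 and 151 CPM (uninduced), 167 and 157 CPM (IPTG control), 102 and 70.9 CPM (CAF-1 OFF) and 185 and 124 CPM (HOXA9 OFF). It fell in CAF-1 OFF cells, at -0.90 ± 0.22 (SE, FDR = 0.03) against uninduced and -0.91 ± 0.22 (SE, FDR = 0.032) against IPTG control cells, and overlapped with the controls in HOXA9 OFF cells. Tkt, for transketolase of the non-oxidative arm, was at 1862 and 1555 CPM (uninduced), 1669 and 1665 CPM (IPTG control), 1289 and 1309 CPM (CAF-1 OFF) and 2078 and 1843 CPM (HOXA9 OFF) and was not called against uninduced cells. With uninduced cells as reference, the Pgls and Rpia calls were each lost on leaving out single libraries, among them uninduced replicate 1 (-0.51 and -0.81) and CAF-1 OFF replicate 2 (-0.49 and -0.66), and for Rpia also uninduced replicate 2 and IPTG control replicate 2. Against IPTG control cells, both calls were lost without either IPTG control library or without CAF-1 OFF replicate 2, and that of Rpia also without either uninduced library.

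The same windows of 250 bases are shown for both dehydrogenases because they rose together, G6pdx at chrX:74428881-74429130 on the minus strand and Pgd, first of 2 windows, at chr4:149166706-149166955 on the minus strand (GRCm38.p6, RefSeq). G6pdx holds 1 reverse-strand TGACNNNGC match, and Pgd holds none of the 5 motifs in these letters.
G6pdx: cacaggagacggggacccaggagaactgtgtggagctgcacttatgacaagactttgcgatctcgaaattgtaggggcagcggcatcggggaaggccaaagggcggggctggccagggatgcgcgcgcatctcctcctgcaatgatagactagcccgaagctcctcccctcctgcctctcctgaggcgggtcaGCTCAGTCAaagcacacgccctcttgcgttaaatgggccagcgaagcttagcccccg
Pgd: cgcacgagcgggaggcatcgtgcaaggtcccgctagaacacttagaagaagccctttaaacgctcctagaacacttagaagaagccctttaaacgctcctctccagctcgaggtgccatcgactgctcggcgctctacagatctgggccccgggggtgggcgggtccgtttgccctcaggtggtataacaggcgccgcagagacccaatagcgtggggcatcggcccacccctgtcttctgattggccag

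Summed over all 33 members, the level was 14587 and 12748 CPM in uninduced, 14138 and 13596 in IPTG control, 10886 and 10786 in CAF-1 OFF and 15247 and 15779 in HOXA9 OFF cells. The CAF-1 OFF sums were the lowest of the 8. On this TMM scale the HOXA9 OFF sums were the highest, but scaled by library size alone, which was looked at after these values were seen, they were 13631 and 14273 CPM against 14752 and 13288 CPM in uninduced cells. For the 6 pentose phosphate genes the sums were 4144 and 3522 CPM in uninduced, 2991 and 3068 in CAF-1 OFF and 6797 and 5907 in HOXA9 OFF cells. These sums weigh abundant genes most and were not tested.

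The make-up of some gene families differed between groups. Among the monocarboxylate transporters, Slc16a1 made up 55.0% ± 2.50 (SD, n = 2) of the level per kilobase in uninduced, 56.7% ± 0.574 in CAF-1 OFF and 20.5% ± 7.33 in HOXA9 OFF cells, and Slc16a3 the rest. Pfkfb4 went from 19.8% ± 0.401 of the Pfkfb3 and Pfkfb4 level in uninduced cells to 55.5% ± 2.61 in HOXA9 OFF cells. Slc2a3 was 7.32% ± 0.0863 of the glucose transporter pair in uninduced, 17.1% ± 3.92 in CAF-1 OFF and 26.9% ± 12.2 in HOXA9 OFF cells, the last with a wide spread between libraries. Fbp2 took 27.6% ± 8.43 of the fructose bisphosphatase level in CAF-1 OFF cells. Hk3 stayed the main hexokinase, at 81.4% ± 3.50 in uninduced and 77.5% ± 0.325 in HOXA9 OFF cells, and Pfkl the main phosphofructokinase, at 63.2% ± 1.46 and 73.0% ± 2.34. These shares rest on exon lengths from the annotation and on 2 libraries each, and no test was made on them.

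**Figure D3:**
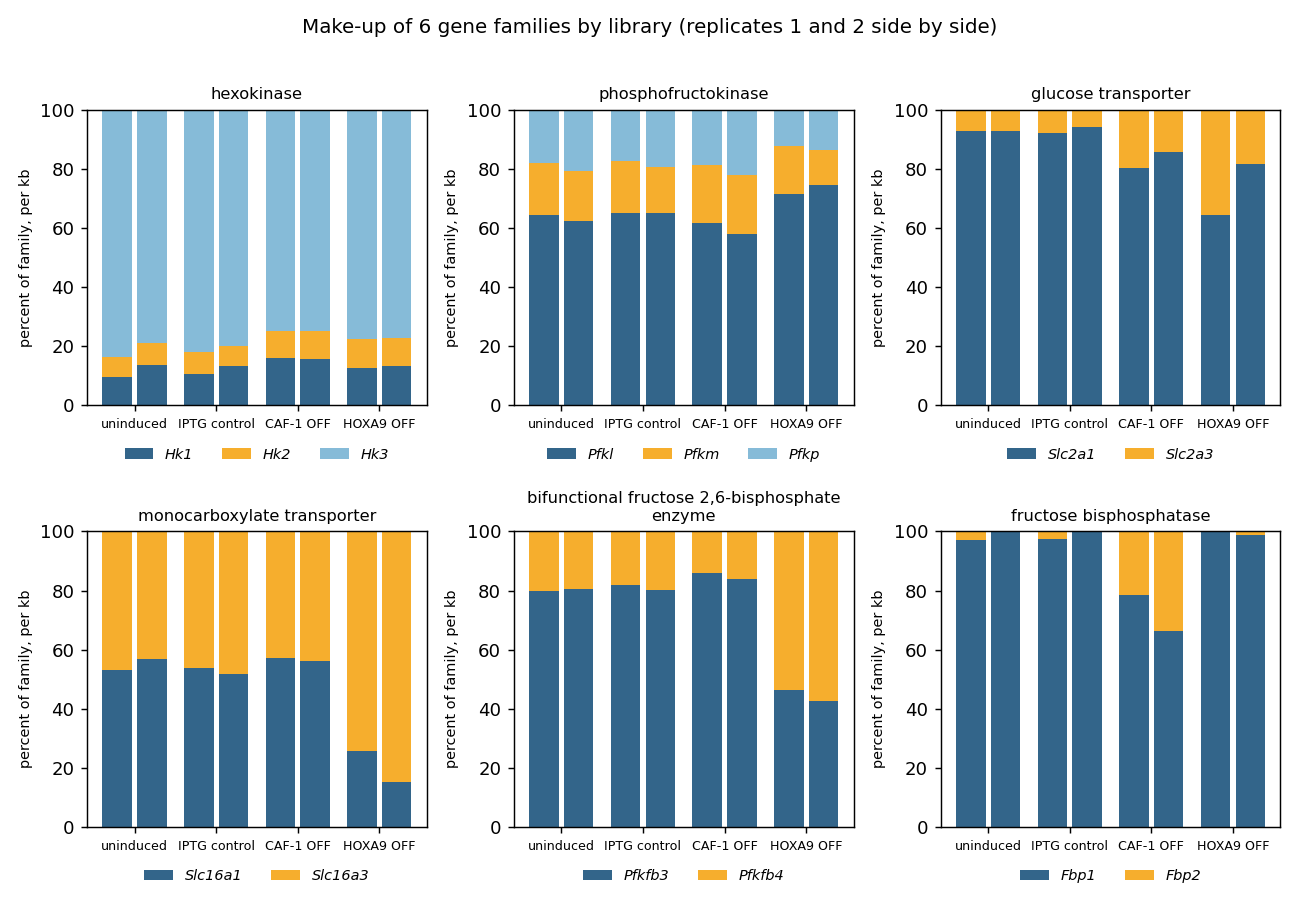
Percent of the summed level per kilobase of exon taken by each gene of 6 families, with 1 bar per library and the 2 libraries of a group side by side. Slc16a3 and Pfkfb4 take more of their families in both HOXA9 OFF libraries, and Fbp2 has a visible share in CAF-1 OFF libraries, at 27.6% on average.

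In the direct contrast of both treatments, 5 of 6 pentose phosphate genes were lower in CAF-1 OFF than in HOXA9 OFF cells, led by G6pdx at -2.01 ± 0.17 (SE, FDR = 9.1e-05) and Pgd at -1.66 ± 0.12 (SE, FDR = 5.0e-05). Taldo1 was at -0.74 ± 0.16 (SE, FDR = 0.0065), Rpia at -0.84 ± 0.22 (SE, FDR = 0.015) and Tkt at -0.59 ± 0.13 (SE, FDR = 0.0053), while Pgls was not called at -0.06 ± 0.12 (SE, FDR = 0.70). Pfkfb4 was lower in CAF-1 OFF cells at -2.56 ± 0.15 (SE, FDR = 2.9e-05) and Aldoc at -1.62 ± 0.34 (SE, FDR = 0.005). Gpi1, Hk3, Hk2 and Pkm2 were lower as well, at -0.74, -0.67, -0.62 and -0.60. Higher in CAF-1 OFF cells were Fbp2, Fbp1, Slc16a1 at 2.65 ± 0.12 (SE, FDR = 1.8e-05), Eno3 at 1.69 ± 0.34 (SE, FDR = 0.0043), Pgam1 at 0.94 ± 0.21 (SE, FDR = 0.0064), Eno1 at 0.77 ± 0.18 (SE, FDR = 0.0076) and Pdk1 at 0.68 ± 0.24 (SE, FDR = 0.041). The calls of Hk2, Gpi1, Eno1, Pdk1, Rpia and Tkt were lost without HOXA9 OFF replicate 1, at -0.53, -0.55, 0.51, 0.33, -0.53 and -0.51 in that order, and Pkm2 was lost without HOXA9 OFF replicate 2 (-0.44). Pdk1 also lost its call without any other single library except HOXA9 OFF replicate 2, at 0.57 to 0.79, Pkm2 without CAF-1 OFF replicate 1 (-0.56) and Rpia without CAF-1 OFF replicate 2 (-0.59). With library size alone the calls of Taldo1 (-0.50), Tkt (-0.36), Hk2 (-0.39), Hk3 (-0.44), Gpi1 (-0.51) and Pkm2 (-0.37) were lost, and Pfkm (0.71) and Pfkp (0.78) were called higher. Without HOXA9 OFF replicate 2, Slc2a1 (0.84), Pfkp (0.94) and Ldha (0.79) were also called higher in CAF-1 OFF cells, and without replicate 1 Aldoa lower (-0.71).

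The 2 HOXA9 OFF libraries differed from each other in a block of glycolytic genes. On the log2 scale of CPM + 1, 11 of 32 members differed between them by at least 0.5, beside 16.2% of all tested genes. In uninduced, IPTG control and CAF-1 OFF cells 1, 2 and 5 members did so, beside 9.32%, 9.44% and 9.15% of all genes. Of the 11, 9 were higher in replicate 2, beside 10.2% of all genes, namely Slc2a1, Slc16a3, Pfkl, Pfkp, Tpi1, Pgk1, Eno1, Ldha and Pdk1. Pgk1, for phosphoglycerate kinase, had the widest gap of these, at 46.6 and 87.5 CPM in HOXA9 OFF and 109 and 88.6 in uninduced cells, and was not called in HOXA9 OFF cells at -0.56 ± 0.27 (SE, FDR = 0.11). It was called lower without HOXA9 OFF replicate 2 (-1.08, FDR = 0.0017) and with library size alone (-0.74, FDR = 0.045). The members higher in replicate 1 by this amount were Ldhb and Rpia. Of 10 tested targets of HIF1 outside glycolysis, 5 were higher in HOXA9 OFF replicate 2 by at least 0.5 and 0 in replicate 1. By the same measure 4 were higher in IPTG control replicate 2 and 2 in uninduced replicate 2, beside 5.49% and 5.96% of all genes. In CAF-1 OFF libraries 2 were higher in replicate 1. Among these 10, Bnip3 was at 25.9 and 84.4 CPM in HOXA9 OFF and 94.2 and 92.6 in uninduced cells. P4ha1 was at 70.9 and 123 CPM in HOXA9 OFF and 141 and 121 in uninduced cells. These genes were picked out after their values were seen. What set the libraries apart was not tested, and every fold change of the 9 genes in HOXA9 OFF cells rests on a mean of unlike libraries.

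**Figure D4:**
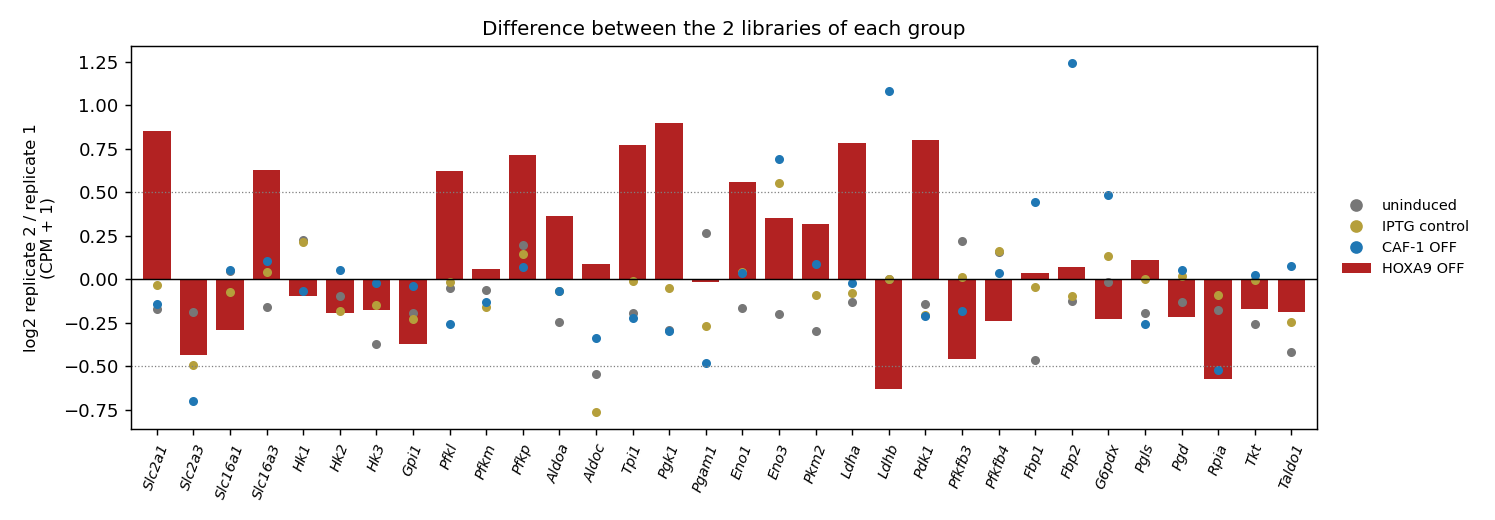
Log2 ratio of replicate 2 to replicate 1 (CPM + 1) for each tested member, with bars for HOXA9 OFF and points for the other 3 groups, and dotted lines at 0.5 in either direction. The bars of 9 members pass the upper line, while points of the other groups pass it only for Eno3, Ldhb and Fbp2.

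A wider list of 56 carbohydrate genes outside the members had 46 tested, of which 14 rose and 11 fell in HOXA9 OFF cells and 9 were higher and 13 lower in CAF-1 OFF than in HOXA9 OFF cells. These were 54.3% and 47.8% of the tested genes of the list, near the 47.2% and 43.5% of all tested genes. In glycogen metabolism 4 of 9 tested genes rose and 0 fell, beside 25.2% of all genes higher and 22.1% lower. Pygl, the liver-type glycogen phosphorylase that releases glucose from glycogen, was at 88.3 and 60.1 CPM (uninduced), 83.7 and 73.3 CPM (IPTG control), 108 and 111 CPM (CAF-1 OFF) and 606 and 432 CPM (HOXA9 OFF), a log2 fold change of 2.81 ± 0.23 (SE, FDR = 4.6e-05). Gyg, Ugp2 and Gbe1, which build the polymer, rose by 1.63, 1.30 and 0.66. The largest rise in the wider list was that of Pgam2, the muscle phosphoglycerate mutase, at 1.20 and 1.16 CPM (uninduced), 0.636 and 0.920 CPM (IPTG control), 2.26 and 3.08 CPM (CAF-1 OFF) and 12.0 and 12.1 CPM (HOXA9 OFF), or 3.35 ± 0.30 (SE, FDR = 7.2e-05). Slc2a6, a lysosomal glucose transporter, was at 2.40 ± 0.38 (SE, FDR = 0.0011) in HOXA9 OFF cells. The Gbe1 call was lost without either uninduced library, without HOXA9 OFF replicate 2, against IPTG control cells and with library size alone, and Ugp2, Gyg and Gbe1 are named after their values were seen.

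Of 6 tested pentose phosphate genes outside the members, 2 fell and 2 rose in HOXA9 OFF cells, beside 47.2% of all genes called. The sedoheptulose kinase gene Shpk was at 1.51 ± 0.28 (SE, FDR = 0.0027) and Rpe, for the epimerase of the non-oxidative arm, at 0.76 ± 0.14 (SE, FDR = 0.0022), a call lost with library size alone (0.56). Prps1, for phosphoribosyl pyrophosphate synthetase, which passes ribose 5-phosphate to nucleotide synthesis, was at 136 and 128 CPM (uninduced), 133 and 124 CPM (IPTG control), 109 and 105 CPM (CAF-1 OFF) and 31.8 and 30.6 CPM (HOXA9 OFF), or -2.08 ± 0.10 (SE, FDR = 1.2e-05), and its paralogue Prps2 was at -1.36 ± 0.13 (SE, FDR = 8.8e-05). Of 11 tested genes for pyruvate entry, 63.6% were called beside 47.2% of all genes, and 5 fell, the pyruvate dehydrogenase components Dlat at -0.93, Pdhx at -0.71, Pdha1 at -0.62, Dld at -0.60 and Pdhb at -0.60, and 2 rose, Pdk2 and Brp44. Pdhb and Dld lie at the 1.5-fold threshold and were not called by DESeq2, and Pdhb, Dld and Pdhx were not called against IPTG control cells. Gpd1, for the cytosolic glycerol phosphate dehydrogenase, was at -2.40 ± 0.44 (SE, FDR = 0.0024) and G6pc3, for the ubiquitous glucose 6-phosphatase, at -1.37 ± 0.16 (SE, FDR = 2.4e-04). Of these genes, all but Prps1, Gpd1 and G6pc3 are named after their values were seen. In the direct contrast Gpd1, Prps1 and G6pc3 were higher in CAF-1 OFF than HOXA9 OFF cells (2.09, 1.78 and 1.20) and Pygl, Pgam2 and the urate and sugar transporter gene Slc2a9 lower (-2.24, -2.17 and -2.08).

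In CAF-1 OFF cells 4 genes of the wider list rose and 1 fell against uninduced cells, or 10.9% of those tested beside 14.0% of all tested genes. Slc2a6 was at 1.35 ± 0.37 (SE, FDR = 0.039), Pgam2 at 1.18 ± 0.29 (SE, FDR = 0.03), Slc16a7, for the transporter MCT2, at 0.92 ± 0.19 (SE, FDR = 0.018) and Pcx, for the pyruvate carboxylase that opens gluconeogenesis, at 0.67 ± 0.14 (SE, FDR = 0.017). Pck2, the mitochondrial phosphoenolpyruvate carboxykinase, was lower at -0.90 ± 0.14 (SE, FDR = 0.008) and also in HOXA9 OFF cells at -0.95 ± 0.14 (SE, FDR = 7.4e-04). Against IPTG control cells Slc2a6, Pgam2, Pcx and Pck2 were called again and Slc16a7 was not. Those repeat calls were lost without CAF-1 OFF replicate 2 or IPTG control replicate 2, and without IPTG control replicate 1 for all but Pck2. Each of the 5 calls against uninduced cells was lost without CAF-1 OFF replicate 2 and without uninduced replicate 1, with values of the same sign. No other gluconeogenesis gene of the list was called in CAF-1 OFF cells. Pck1 had 2 counts in HOXA9 OFF replicate 1 and 0 elsewhere, and G6pc was at 0 outside HOXA9 OFF cells.

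**Figure D5:**
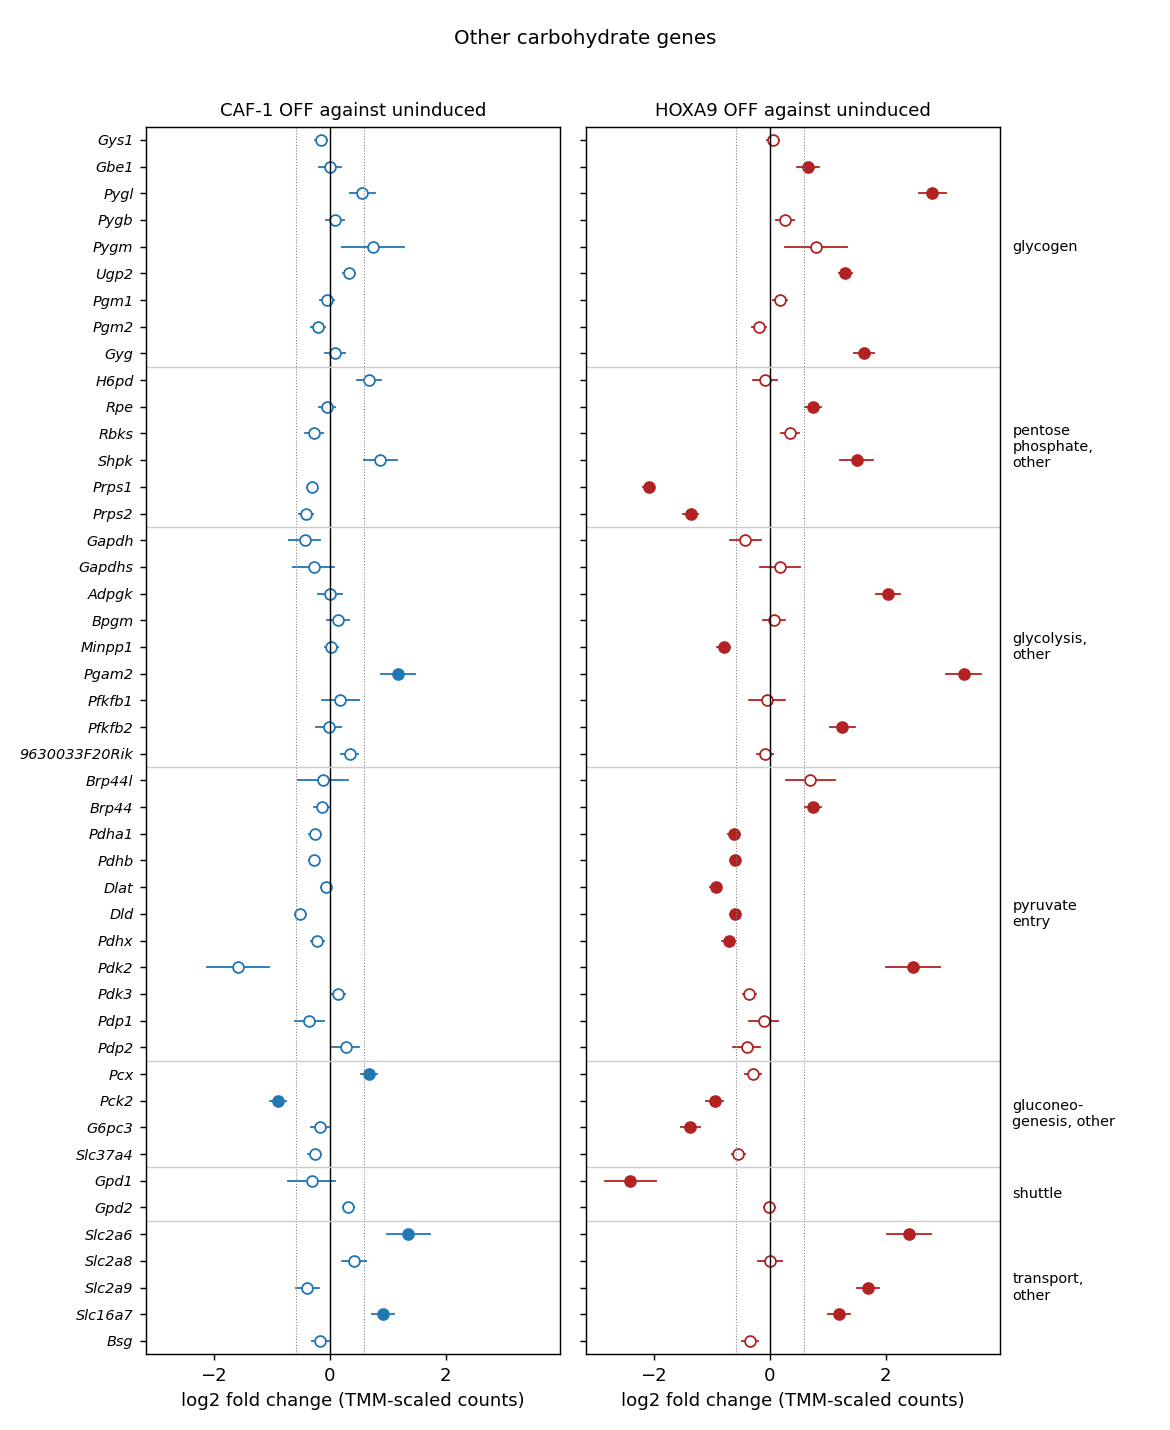
Log2 fold change of the 46 tested genes of the wider carbohydrate list in CAF-1 OFF (left) and HOXA9 OFF cells (right) against uninduced cells, grouped by role. Points are estimates from 2 libraries a group and bars ± 1 SE, with SE and calls from the fit over all 8 libraries. Filled symbols are called and dotted lines mark 1.5-fold. Filled points number 5 on the left and 25 on the right, with the 4 called glycogen genes to the right of 0.

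Of 13 tested factors known to control glycolytic genes, 4 fell and 3 rose in HOXA9 OFF cells, or 53.8%, near the 47.2% of all tested genes, and the standard fit called none in CAF-1 OFF cells. Myc was at 574 and 527 CPM (uninduced), 597 and 549 CPM (IPTG control), 455 and 392 CPM (CAF-1 OFF) and 129.7 and 115 CPM (HOXA9 OFF), or -2.17 ± 0.13 (SE, FDR = 1.7e-05), and Egln3 and Egln1, the prolyl hydroxylases that mark HIF1 for destruction, were at -2.38 ± 0.19 (SE, FDR = 4.8e-05) and -0.94 ± 0.16 (SE, FDR = 0.0017). Mycn had 27 and 21 counts in uninduced cells and 0 in both HOXA9 OFF libraries (FDR = 0.0051 in the standard fit). It was at least 6.45-fold lower when both HOXA9 OFF libraries are set to 3 counts each. The genes that rose were Mxi1, a MYC antagonist, at 1.00 ± 0.16 (SE, FDR = 0.0012), Txnip, which restrains glucose uptake, at 0.93 ± 0.16 (SE, FDR = 0.0018), and Arnt, the partner of HIF1, at 0.82 ± 0.11 (SE, FDR = 5.0e-04). Hif1a itself was at 124 and 138 CPM in uninduced and 145 and 171 in HOXA9 OFF cells, without a call. Of 10 tested HIF1 targets outside glycolysis, 50% were called beside 47.2% of all genes, and 3 rose, Hmox1 (2.99), Vegfa (1.24) and Ndrg1 (0.93), and 2 fell, Ankrd37 and Higd1a (-0.68). In CAF-1 OFF cells Car9 was the called gene of that list, at -0.69 ± 0.18 (SE, FDR = 0.033). The Ndrg1, Ankrd37, Higd1a and Car9 calls were each lost on leaving out single libraries, among them uninduced replicate 1. No link between any of these factors and the members was tested.

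In the windows before the RefSeq starts, the letters ACGTG were found for 11 of 32 members (34.4%), beside 16.6% of 27025 genes with a window, taking the first listed window of each gene and both strands. CACGTG was found for 4 members (12.5%) beside 6.05% of all genes. CCGGAAG was found for 2 (6.25%, 7.05% of all genes), TGACNNNGC for 3 (9.38%, 10.1%) and AGATAA for 2 (6.25%, 10.3%). These are counts of letters in a window of 250 bases, with no test and no evidence of binding, and Slc2a3 had no window in the table used.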

How the data were processed

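Counts of reads per gene were deposited for 8 libraries, 2 for each of 4 groups. The authors made them with a directional library kit, alignment to mm9 by STAR and counting by HTSeq, and the annotation version and strand setting are not given in the sources used here. The 5 HTSeq summary rows per file were left out. Reads in no feature came to 5.30% to 14.6% of the total in genes, in no feature or ambiguous, highest in IPTG control replicate 1. Alignments that were not unique came to 0.960 to 1.28 per gene count in the controls. These were 0.901 and 0.869 in CAF-1 OFF and 0.801 and 0.804 in HOXA9 OFF libraries. All 8 libraries were fitted together in edgeR 4.0.16 (R 4.3.3, limma 3.58.1) with TMM scaling, filterByExpr and the quasi-likelihood test, and p-values were adjusted by Benjamini-Hochberg over the 13080 genes tested. The script was tested on simulated data. DESeq2 1.42.0, other scalings, filters, thresholds and left-out libraries were alternatives. Members and lists were chosen with earlier results of these data known. Every member is accounted for, with values per library for those called in at least 1 of the first 4 comparisons and for the most abundant per length of each role. Other lists are given by counts and by up to 3 called genes each way per comparison whose mean log2 CPM reached 2. Some further genes of these lists are also named, most of them picked after their values were seen. Positions of genes are in mm9 and promoter windows in GRCm38.p6 (RefSeq). Figures were drawn with matplotlib 3.10.9 in Python 3.11.15. The biological coefficient of variation was 18.9%. A gene of the wider list is not reported here.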

Additional observations from a re-analysis of the deposited data

How the results depend on the processing

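All 49 called values of members kept their direction under every alternative, none reversed, and 25 kept their call under all but the stricter thresholds. Of these 49, DESeq2 called 49 and scaling by library size alone 37. The count of called members in CAF-1 OFF cells was less stable than in HOXA9 OFF cells. In place of 5 members against uninduced and 5 against IPTG control cells, it was 8 and 9 without the low-count filter, 8 and 10 with DESeq2, 8 and 8 with only the groups compared, 2 and 2 with glmTreat (a test against 1.5-fold), and 2 and 2 at an FDR under 0.01 with 2-fold. In HOXA9 OFF cells 10 in place of 21 were called with glmTreat and 8 at the stricter threshold, and in CAF-1 OFF against HOXA9 OFF cells 8 and 8 in place of 18. Leaving out each library in turn gave 2 to 9 members in CAF-1 OFF cells against uninduced, 2 to 9 against IPTG control, 14 to 21 in HOXA9 OFF cells and 14 to 20 between both treatments. The low counts against uninduced cells were 2 without uninduced replicate 1, 3 without uninduced replicate 2 and 2 without CAF-1 OFF replicate 2, and the high ones 8 without HOXA9 OFF replicate 1 and 9 without HOXA9 OFF replicate 2. Against IPTG control cells they were 3 without either uninduced library, 2 without either IPTG control library or CAF-1 OFF replicate 2, and 9 without either HOXA9 OFF library. The cause was not tested. Fbp1 and Fbp2 were called in CAF-1 OFF cells each time. IPTG control cells as the reference for HOXA9 OFF cells gave 20 members. With the longest annotated transcript as gene length, most isoenzyme shares moved by more than the spread between replicates.

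With the replicate number as a block (replicate block), 5, 6, 22 and 18 members were called in CAF-1 OFF against uninduced, CAF-1 OFF against IPTG control, HOXA9 OFF against uninduced, and between both treatments, and 0 between IPTG control and uninduced cells. All 49 called values stayed called, and Eno3 was also called, lower in HOXA9 OFF against uninduced (-0.86, FDR = 0.031) and higher in CAF-1 OFF against IPTG control cells (1.04, FDR = 0.035). Same-numbered libraries deviated together in uninduced and IPTG control (r = 0.57 across 13080 genes), uninduced and HOXA9 OFF (0.34) and IPTG control and HOXA9 OFF cells (0.33), while CAF-1 OFF libraries gave -0.06 to 0.06, and the labels do not say that a number marks a shared culture or day. Genes are not independent replicates. With 2 libraries a group, small changes may go undetected. Some in the standard fit passed the FDR and missed only the fold threshold. In CAF-1 OFF against HOXA9 OFF cells these included Hk1 at -0.34 (FDR = 0.044) and Pfkm at 0.47 (FDR = 0.0076).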
